A study of Arabidopsis thaliana with 12 samples.

Results

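The genes described here are 34 nuclear genes of Arabidopsis thaliana whose products build photosystem I, photosystem II, the electron carriers between and behind them, and the ATP synthase of the chloroplast, all found among the 37885 genes of the count table. The rule that chose them uses what their products do and no measured value, though the choice was made with earlier results of these data known. Of the 34, 12 encode photosystem I (PSI) subunits, 12 photosystem II (PSII) subunits, and 10 the Rieske protein, plastocyanins, ferredoxins, ferredoxin-NADP reductases and ATP synthase subunits. RNAseq of poly(A) RNA was carried out on whole seedlings, 7 days old, grown in continuous light on half-strength MS agar without sucrose and without further treatment. Each of 3 genotypes had 4 biological replicates, giving 12 libraries. The genotypes were Col-0, the wild-type accession; prt6-1 (below prt6), a mutant of PRT6, the E3 ligase of the N-degron pathway; and prt6-1erfvii (below prt6 erfVII), which carries the same mutation together with mutant alleles of HRE1, HRE2, RAP2.3, RAP2.2 and RAP2.12, the 5 transcription factors of ERF group VII. A mutant of the ERFVIIs with intact PRT6 was not analysed here. A whole-seedling sample holds shoot and root together, so fewer green cells and less RNA per green cell cannot be told apart.

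In photosynthesis, PSII uses light to draw electrons from water, the cytochrome b6f complex with its Rieske protein passes them to plastocyanin, and PSI lifts them to ferredoxin, from which ferredoxin-NADP reductase makes NADPH. The proton gradient built on the way drives the ATP synthase. The reaction centre proteins of both photosystems and some of their other subunits are encoded in the plastid. The remaining subunits are encoded in the nucleus, many of them by a pair of closely related genes. The products of the group VII ERF genes are degraded through PRT6 when oxygen is present, and persist when oxygen is low or PRT6 is absent. The plastid genes have no row in the count table and were not analysed here.

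The libraries held 23156637 to 30582461 counts in genes. PRT6 transcripts were at 56.3 to 65.2 CPM (counts scaled by TMM to a common library size) in Col-0, at 45.1 to 76.4 in the libraries labelled prt6 and at 7.22 to 10.1 in prt6 erfVII, so the count of PRT6 did not separate the first 2 genotypes and directions given for prt6 rest on the label. HRE2 did separate them, with 7 to 32 counts per library in Col-0 and 57 to 88 in the prt6-labelled libraries. Its log2 fold change in prt6 vs Col-0 was 1.94 (edgeR adjusted p = 0.00150). PRT6 differed between the 2 lines whose labels both name prt6-1 (2.81 for prt6 vs prt6 erfVII, edgeR adjusted p = 1.25e-06). The counts thus do not show that both lines carry the same PRT6 mutation, and the reason for the difference was not tested. In prt6 erfVII, HRE1 stayed without counts, HRE2 had at most 2 and RAP2.3 at most 22, whereas RAP2.12 still had 48.0 to 53.9 CPM and RAP2.2 56.3 to 61.1, against means of 96.0 and 105 in Col-0. Between replicates of a genotype, the chi-square of counts per degree of freedom was between 3.88 and 15.12, with the 3 largest values in pairs that include prt6 replicate 4. Of 12 root markers, 6 were higher and 1 lower in the prt6-labelled libraries than in prt6 erfVII, against 14.7% and 16.6% of all genes tested. The 12 summed to 77.9 to 104 CPM in Col-0, 91.6 to 117 in the prt6-labelled libraries and 59.6 to 74.5 in prt6 erfVII. The 6 were the root hair genes EXPA7, EXPA18, COBL9, RHD6, PRP3 and ADF8, whereas the endodermis genes CASP1 to CASP4 were not called and CASP5 was the lower one. Against Col-0, CASP5 and MYB36, also of the endodermis, were higher in prt6 erfVII (1.51 against 0.560 CPM and 4.48 against 3.00 CPM on average). The summed level of 6 shoot epidermis markers was 466 to 537, 449 to 508 and 586 to 631 CPM in the same order. FDH alone carried the higher sum in prt6 erfVII (means of 283, 263 and 384 CPM), PDF2 was lower there than in Col-0 (93.5 against 104 CPM), and the other 4 were not called. Seed storage transcripts summed to 84.4 CPM in prt6 erfVII replicate 1 and to at most 42.0 in any other library, and the floral markers AP3 and AG had at most 0.343 CPM, while PI had 0.906 to 2.92 CPM in Col-0 and 4.66 to 11.9 in the other genotypes.

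The 34 genes together took 5.43% to 5.66% of the counts on genes in Col-0, 4.79% to 5.17% in the prt6-labelled libraries and 4.56% ± 0.230 (SD, n = 4; at most 4.84%) in prt6 erfVII. Per exon length (RPKM, the CPM divided by exon length in kilobases), PSBR stood highest in all 3 genotypes, at 4606 RPKM on average in Col-0, 4006 in the prt6-labelled libraries and 3935 in prt6 erfVII. In Col-0 it was followed by PSAO (3033 RPKM), PSAK (2893), PSBO1 (2716), PSAG (2709) and PSBP1 (2650), neighbours whose libraries overlapped, and the group from PSBR to PSBP1 lay above PSAL (2509). At the low end were FD1 (434 RPKM in Col-0), PETE1 (203) and PSBP2 (3.83), each below its neighbour in every Col-0 library. PSBP2 was the only member with few counts, 33 to 122 per library, against 3792 to 112007 for the others. The spread between replicates was small. The coefficient of variation of a member had a median of 2.19% in Col-0, 5.50% in the prt6-labelled libraries and 6.47% in prt6 erfVII.

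**Figure D1:**
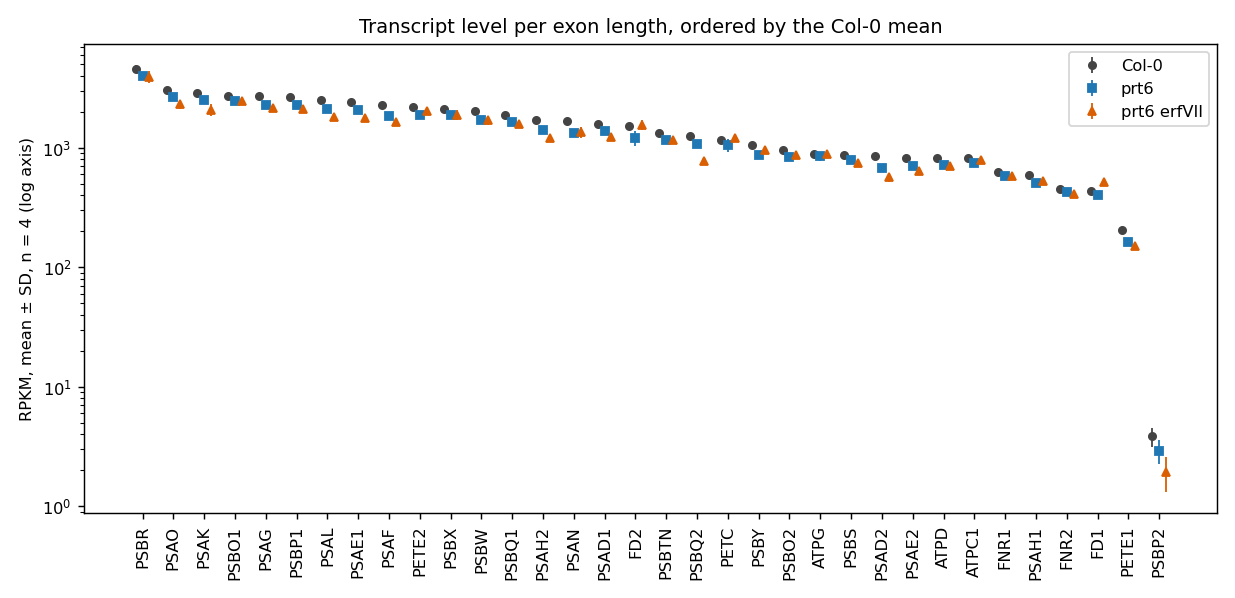
RPKM of the 34 genes (mean ± SD, n = 4; log axis) in Col-0, the prt6-labelled libraries and prt6 erfVII, ordered by the Col-0 mean. PSBR stands highest, at 4606 RPKM in Col-0, and PSBP2 lowest, at 3.83.

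Since 9 proteins each have 2 annotated genes, both counts can be compared only where reads of one cannot be taken for the other. No 75-base stretch, the read length, of any member's exons occurs at another place in the nuclear genome. The 2 coding sequences of a pair were identical at 77.7% (FNR1 and FNR2) to 88.1% (PSAD1 and PSAD2) of aligned positions. For PSBP1 and PSBP2 only 376 positions were aligned, since the coding sequence of PSBP2 had 378 bases against 792. Even the closest 75-base coding stretch of a pair held 2 (PSBO1 and PSBO2) to 10 (FD1 and FD2) differing bases. The stretches of 2 pairs, chosen after their values were seen because their copy ratios set prt6 erfVII apart, are printed 5′ to 3′ on the coding strand of TAIR10.1, with the differing bases in capitals. The ratio of the plastocyanin pair, PETE1 and PETE2, also set prt6 erfVII apart, and its sequences are not printed. The PSAH pair differs at 3 positions (PSAH1 at chr3:5468983-5469057, minus strand; PSAH2 at chr1:19455135-19455209, plus strand) and the PSBQ pair at 6 (PSBQ1 at chr4:11335100-11335174, plus strand; PSBQ2 at chr4:2672556-2672630, minus strand).
PSAH1: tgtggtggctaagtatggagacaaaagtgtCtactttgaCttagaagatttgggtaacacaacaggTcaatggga
PSAH2: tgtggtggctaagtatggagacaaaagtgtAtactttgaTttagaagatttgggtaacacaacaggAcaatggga
PSBQ1: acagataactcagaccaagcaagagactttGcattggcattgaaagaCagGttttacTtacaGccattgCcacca
PSBQ2: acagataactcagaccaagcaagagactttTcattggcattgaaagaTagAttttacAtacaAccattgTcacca

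The sequence before the annotated start of each gene was searched for short motifs known from light-regulated plant promoters, because many members moved together. Among the 250 bases upstream, 7 of the 34 genes held a G-box (CACGTG; 20.6%, against 6.49% of 27443 protein-coding nuclear genes) and 10 an I-box (GATAAG or its reverse CTTATC; 29.4% against 12.3%). The letters CCAATC or GATTGG were found in 4 (11.8% against 10.2%), the evening element core AAAATATC or GATATTTT in 3 (8.82% against 5.90%), and the GCC box, GCCGCC or GGCGGC, a motif bound by ERF proteins, in 1, PSAE2 (2.94% against 1.87%). Of the 26 members lower in prt6 erfVII than in Col-0, 7 held the G-box and 6 the I-box. These matches describe the sequence alone. The promoters of the same 2 pairs are printed 5′ to 3′ on the strand of the gene, with every match in capitals. In PSAH2 (chr1:19454548-19454797, plus strand) 2 G-boxes begin 67 and 12 bases before the start and an I-box 84 bases before it, and in PSAH1 (chr3:5469595-5469844, minus strand) there was no match. PSBQ1 (chr4:11334102-11334351, plus strand) and PSBQ2 (chr4:2673244-2673493, minus strand) each held 2 G-boxes, at 83 and 55 bases and at 145 and 77 bases before the start, and PSBQ2 also an I-box 15 bases and GATTGG 246 bases before it. In the plastocyanin pair, PETE2 held 3 matches (evening element core, I-box and CCAATC) and PETE1 none. A relation between matches and transcript levels was not tested. The windows of PSAH2 and PSBQ1 overlap a neighbouring gene, as do those of PSAE2, PSBP2, PSBTN and ATPD. Of the genes with a G-box, only PSBQ2 had a window free of other genes. Windows of many members without a G-box overlap a neighbour too, so the matches may lie in neighbouring genes.
PSAH1: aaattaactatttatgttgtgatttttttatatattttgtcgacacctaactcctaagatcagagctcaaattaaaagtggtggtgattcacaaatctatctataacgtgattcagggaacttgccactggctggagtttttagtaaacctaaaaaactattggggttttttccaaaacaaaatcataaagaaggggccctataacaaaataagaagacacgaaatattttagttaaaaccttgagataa
PSAH2: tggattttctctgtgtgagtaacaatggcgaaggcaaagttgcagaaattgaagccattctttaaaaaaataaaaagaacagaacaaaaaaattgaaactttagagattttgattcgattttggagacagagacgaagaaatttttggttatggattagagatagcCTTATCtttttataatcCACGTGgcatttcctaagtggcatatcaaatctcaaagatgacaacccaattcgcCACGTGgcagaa
PSBQ1: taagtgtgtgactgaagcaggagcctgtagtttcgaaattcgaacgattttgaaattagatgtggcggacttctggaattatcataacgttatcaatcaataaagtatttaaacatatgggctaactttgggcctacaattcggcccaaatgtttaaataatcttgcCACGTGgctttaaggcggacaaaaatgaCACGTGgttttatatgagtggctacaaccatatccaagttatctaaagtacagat
PSBQ2: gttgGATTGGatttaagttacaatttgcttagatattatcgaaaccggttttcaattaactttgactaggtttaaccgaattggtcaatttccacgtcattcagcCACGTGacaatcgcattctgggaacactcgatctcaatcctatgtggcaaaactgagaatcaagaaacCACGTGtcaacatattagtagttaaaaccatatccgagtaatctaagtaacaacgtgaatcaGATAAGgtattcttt

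Against Col-0, most of the 34 genes were lower in both mutants. In prt6 erfVII, 26 of the 34 were lower than in Col-0 and 1, FD1, was higher (edgeR's quasi-likelihood test, Benjamini-Hochberg adjusted p under 0.05). Of all 20747 genes tested in that comparison 37.2% passed, 18.7% with the higher level in Col-0 and 18.5% with the lower, and 53.3% of the genes with a mean of at least 100 CPM. The libraries of the 2 genotypes did not overlap for 26 of the 34 genes, against 34.8% of all genes. In the prt6-labelled libraries, 20 of the 34 were lower than in Col-0 and none higher, and all 34 log2 fold changes were below 0 (30 of them at an unadjusted p under 0.05; DESeq2 called 24 lower and 0 higher). Here the background was far smaller: 2.18% of 20899 genes were called, 1.09% higher and 1.09% lower, and 5.96% of those with at least 100 CPM. The libraries did not overlap for 23 of the 34, against 7.76% of all genes. Between the 2 mutants, 7 of the 34 were higher and 3 lower in the prt6-labelled libraries than in prt6 erfVII, against 31.3% of 20857 genes called, 14.7% higher and 16.6% lower (47.4% of those with at least 100 CPM), and the libraries did not overlap for 6 of the 34, against 31.2%. Between the 2 mutants, the 10 calls and 6 separated genes among the members were no more than these backgrounds. The median log2 fold change of the 34 genes was 0.23 for Col-0 vs prt6 erfVII (0.01 over all genes tested), -0.21 for prt6 vs Col-0 (0.00 over all genes tested) and 0.02 for prt6 vs prt6 erfVII (0.00 over all genes tested). The 3 comparisons share libraries, so they are not independent of one another.

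**Figure D2:**
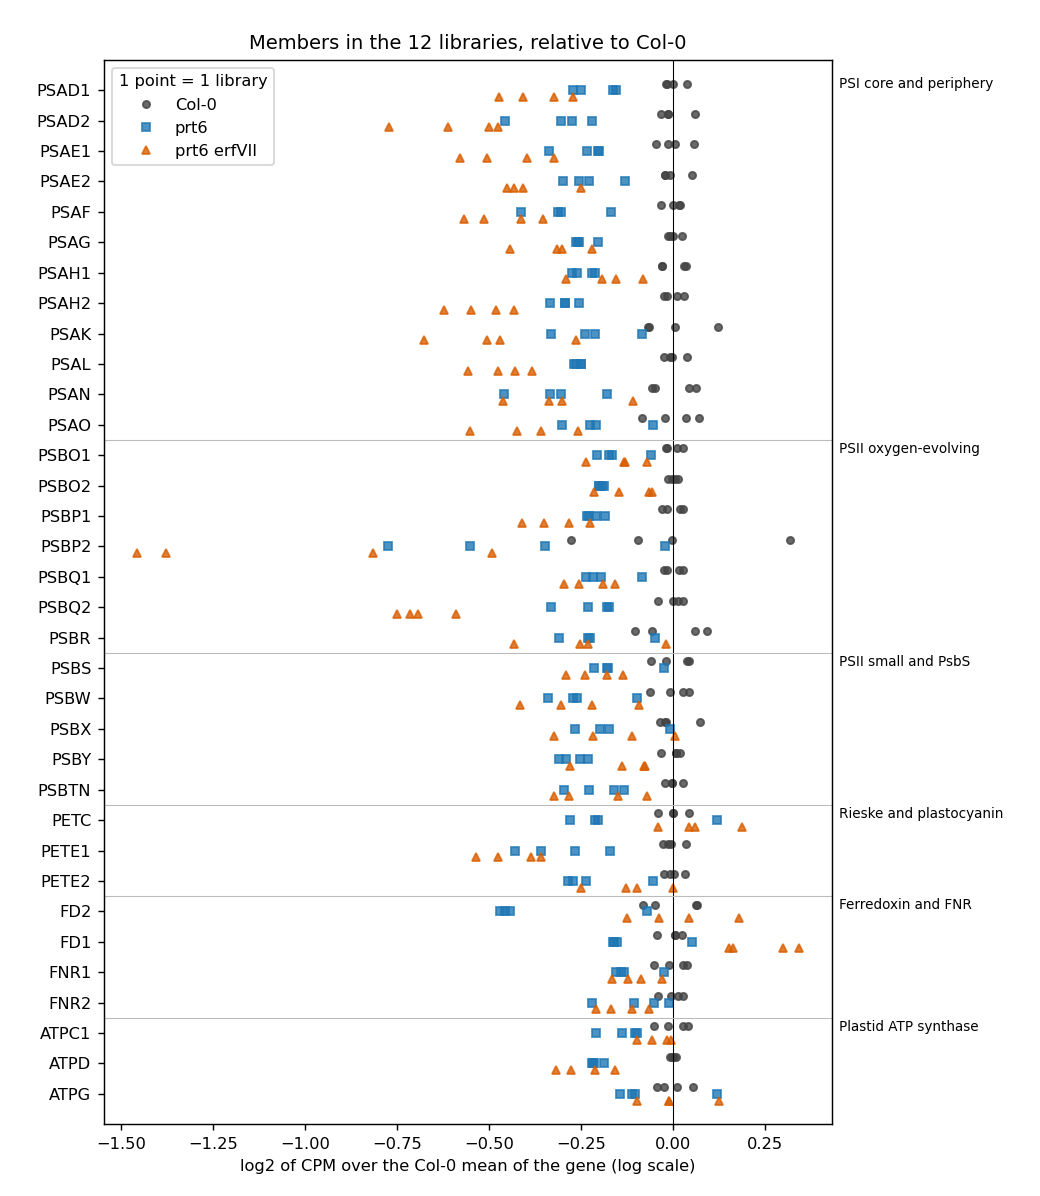
Level of each gene in each of the 12 libraries as log2 of CPM over the gene's Col-0 mean, with genes ordered by complex. All 4 Col-0 libraries lie above the 8 others for 21 of the 34 genes, 11 of them PSI genes, while FD1 lies to the right in prt6 erfVII.

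Within the mutants, the libraries moved up and down together over many genes. Replicate 3 was the highest of the prt6 erfVII libraries for 30 of the 34 genes and replicate 1 the lowest for 32, and replicate 4 was the highest of the prt6-labelled libraries for 25. Leaving out 1 library moved the number of calls. For prt6 vs Col-0, between 9 and 29 genes were called lower: 29 without prt6 replicate 4 (3.11% of 21031 genes were then called lower), 9 without Col-0 replicate 4, 12 without Col-0 replicate 1 or 2 or prt6 replicate 1 or 3, 13 without prt6 replicate 2 and 14 without Col-0 replicate 3. The 9 genes called whichever library was left out were PSAD2, PSAF, PSAG, PSAH1, PSAH2, PSAL, PSAN, PSBY and PETE1. For Col-0 vs prt6 erfVII, 22 of the 27 calls held whichever library was left out, and the other 5 were PSBO1, PSBR, PSBX, PSBY and FNR2. Between the 2 mutants 6 of 10 held, PSAD2, PSAH2, PSAL, PSBQ2, FD1 and FD2; without prt6 erfVII replicate 4 the number of higher genes fell from 7 to 4.

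**Figure D3:**
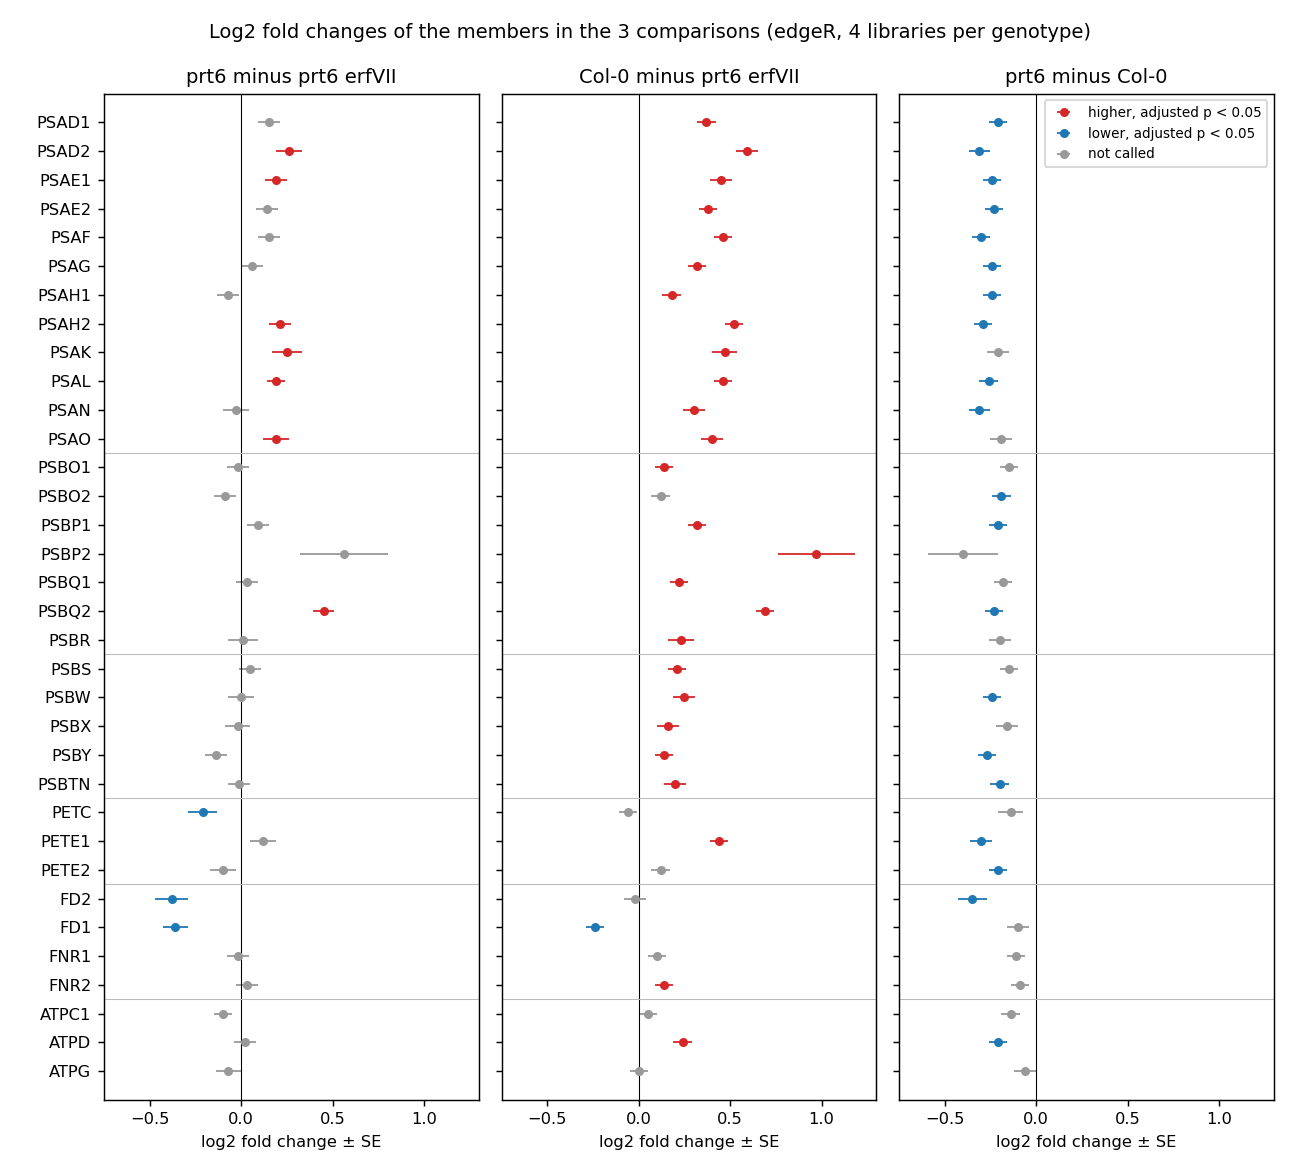
Log2 fold changes (± SE, edgeR, 4 libraries per genotype) of the 34 genes in the 3 comparisons, in red where called higher and blue where called lower in the genotype named first. In Col-0 vs prt6 erfVII all 12 PSI genes are to the right of 0, from 0.18 to 0.59, and in prt6 vs Col-0 every gene is to the left.

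PSI genes formed the group with the most calls. All 12 were lower in prt6 erfVII than in Col-0, with log2 fold changes of Col-0 over the mutant from 0.18 to 0.59 (median 0.42), and no libraries overlapped. In the prt6-labelled libraries, 10 of the 12 were lower than in Col-0 (median -0.24), and 6 of the 12 were higher than in prt6 erfVII (median 0.17). Of all genes tested, 18.7%, 1.09% and 14.7% were called in these directions, in the same order. For the 12 PSII genes the numbers called were 11, 6 and 1. The PsaD and PsaE proteins form the stromal face on which ferredoxin docks. PSAD1 (AT4G02770, chr4:1229031-1230164, minus strand) reached 1787, 1786, 1809 and 1856 CPM in the 4 Col-0 libraries and 1520, 1624, 1499 and 1617 in those labelled prt6. In prt6 erfVII it had 1304, 1447, 1498 and 1363 CPM. The 3 genotypes did not overlap, although the lowest prt6-labelled library and the highest prt6 erfVII library lay next to each other, and that difference was not called (log2 fold change 0.15, adjusted p = 0.0704). PSAD2 (AT1G03130, chr1:753307-754262, minus strand), its second copy, was at 802, 802, 792 and 843 CPM in Col-0 and at 669, 656, 590 and 695 in the prt6-labelled libraries. Its prt6 erfVII libraries had 474, 572, 582 and 530 CPM. It again fell into 3 separate ranges, and it had the largest log2 fold change of the PSI genes in Col-0 vs prt6 erfVII (0.59 ± 0.06 SE, adjusted p = 3.94e-08). In prt6 vs Col-0 it was -0.31 (± 0.06 SE, adjusted p = 0.00281) and in prt6 vs prt6 erfVII 0.26 (± 0.07 SE, adjusted p = 0.00798). PSAE1 (AT4G28750, chr4:14202758-14204061, minus strand) had 1925, 1951, 1883 and 2022 CPM in Col-0 and 1654, 1689, 1538 and 1690 in the prt6-labelled libraries. Levels in prt6 erfVII were 1302, 1476, 1555 and 1369 CPM. Col-0 lay above both mutants, which overlapped each other by 1 library, and all 3 comparisons were called. The call between the mutants (log2 fold change 0.19, edgeR adjusted p = 0.0260) was lost without prt6 replicate 1 or 2 or prt6 erfVII replicate 1 or 4. It was also lost with replicate number as a block. PSAE2 (AT2G20260, chr2:8736734-8737767, plus strand) was less abundant, with 495, 495, 500 and 521 CPM in Col-0 and 421, 429, 409 and 459 in the prt6-labelled libraries. The prt6 erfVII values were 368, 379, 423 and 373 CPM. It was called in both comparisons with Col-0 (log2 fold changes 0.38 against prt6 erfVII and -0.23 for prt6 vs Col-0) and not between the mutants, whose libraries overlapped (adjusted p = 0.0865).

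The PsaF, PsaN and PsaG proteins lie at the rim and lumenal side of PSI, where PsaF and PsaN help plastocyanin to bind. PSAF (AT1G31330, chr1:11214676-11216141, minus strand) was at 2767, 2735, 2678 and 2776 CPM in Col-0 and at 2206, 2215, 2055 and 2438 in the prt6-labelled libraries. In prt6 erfVII it had 1848, 2055, 2145 and 1917 CPM. Every Col-0 library was above every mutant library, with log2 fold changes of 0.46 (± 0.05 SE, adjusted p = 3.53e-07) for Col-0 vs prt6 erfVII and -0.30 (± 0.05 SE, adjusted p = 0.00286) for prt6 vs Col-0. PSAN (AT5G64040, chr5:25628521-25629708, minus strand) had 1641, 1633, 1772 and 1749 CPM in Col-0 and 1376, 1347, 1236 and 1500 in the prt6-labelled libraries. Its prt6 erfVII libraries had 1234, 1377, 1575 and 1344 CPM. Its mutant libraries overlapped (log2 fold change -0.03, adjusted p = 0.793) and both lay below Col-0 (0.30 for Col-0 vs prt6 erfVII and -0.31 for prt6 vs Col-0). PSAG (AT1G55670, chr1:20802670-20803449, minus strand) reached 2113, 2099, 2093 and 2147 CPM in Col-0 and 1769, 1833, 1758 and 1766 in the prt6-labelled libraries. Levels in prt6 erfVII were 1554, 1712, 1813 and 1699 CPM. Like PSAN it had called differences from Col-0 (adjusted p = 4.39e-05 for Col-0 vs prt6 erfVII and 0.00493 for prt6 vs Col-0) and overlapping mutants (adjusted p = 0.468).

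The PsaH, PsaL and PsaO proteins form the side of PSI on which mobile LHCII antenna docks, and PsaK lies at another edge. PSAL (AT4G12800, chr4:7521257-7522761, plus strand) was at 2811, 2841, 2856 and 2934 CPM in Col-0 and at 2384, 2403, 2374 and 2404 in the prt6-labelled libraries. The prt6 erfVII values were 1944, 2122, 2192 and 2058 CPM. The 3 genotypes did not overlap, and all 3 comparisons were called (adjusted p = 1.67e-07 for Col-0 vs prt6 erfVII, 0.00275 for prt6 vs Col-0 and 0.0126 for prt6 vs prt6 erfVII). PSAH2 (AT1G52230, chr1:19454798-19455668, plus strand) had 1190, 1184, 1229 and 1212 CPM in Col-0 and 981, 1008, 954 and 981 in the prt6-labelled libraries. In prt6 erfVII it had 782, 862, 892 and 822 CPM. It too separated into 3 ranges, with log2 fold changes of 0.52 for Col-0 vs prt6 erfVII (± 0.05 SE, adjusted p = 3.08e-08), -0.29 for prt6 vs Col-0 (± 0.05 SE, adjusted p = 0.00109) and 0.21 for prt6 vs prt6 erfVII (± 0.06 SE, adjusted p = 0.00814). PSAH1 (AT3G16140, chr3:5467987-5469594, minus strand), the other copy, was at 757, 757, 790 and 793 CPM in Col-0 and at 646, 668, 640 and 664 in the prt6-labelled libraries. Its prt6 erfVII libraries had 632, 695, 731 and 677 CPM. Here the 2 mutants overlapped (log2 fold change -0.07, adjusted p = 0.360), both below Col-0 (0.18 for Col-0 vs prt6 erfVII, adjusted p = 0.00969; -0.24 for prt6 vs Col-0, adjusted p = 0.00918). PSAK (AT1G30380, chr1:10722183-10723247, plus strand) reached 2122, 2125, 2234 and 2419 CPM in Col-0 and 1920, 1885, 1766 and 2099 in the prt6-labelled libraries. Levels in prt6 erfVII were 1392, 1606, 1852 and 1567 CPM. It was called higher in the prt6-labelled libraries than in prt6 erfVII (0.25 ± 0.08 SE, adjusted p = 0.0204), although replicate 3 of prt6 erfVII overlapped them and the call was lost without prt6 erfVII replicate 1 or 4. For prt6 vs Col-0 it missed the threshold (adjusted p = 0.0632). PSAO (AT1G08380, chr1:2640803-2641934, minus strand), an abundant PSI transcript with 2341 to 2605 CPM in Col-0 and 1693 to 2075 in prt6 erfVII, was called against prt6 erfVII in both other genotypes (0.40 for Col-0, adjusted p = 1.27e-05; 0.19 for the prt6-labelled libraries, adjusted p = 0.0440) and not in prt6 vs Col-0 (adjusted p = 0.0825). The call between the mutants was lost without prt6 replicate 1, 2 or 4 or prt6 erfVII replicate 1, 2 or 4. It was also lost with replicate number as a block.

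The oxygen-evolving proteins PsbO, PsbP and PsbQ shield the manganese cluster of PSII on the lumenal side, and PsbR helps them to bind. Of these 7 genes, 6 were lower in prt6 erfVII than in Col-0 (median log2 fold change 0.23), 3 were lower in the prt6-labelled libraries than in Col-0 (median -0.20), and 1, PSBQ2, differed between the 2 mutants. The shares of all genes tested were 18.7%, 1.09% and 31.3%, so 1 of 7 between the mutants was no more than the background. PSBQ2 (AT4G05180, chr4:2671523-2673243, minus strand) reached 1591, 1548, 1607 and 1621 CPM in Col-0 and 1357, 1406, 1265 and 1411 in the prt6-labelled libraries. The prt6 erfVII values were 947, 984, 1057 and 969 CPM. The 3 ranges were separate and the widest gap was the one below prt6: the log2 fold change was 0.45 for prt6 vs prt6 erfVII (± 0.06 SE, adjusted p = 1.05e-05), 0.69 for Col-0 vs prt6 erfVII (± 0.05 SE, adjusted p = 2.32e-10, 1.61-fold) and -0.23 for prt6 vs Col-0 (± 0.05 SE, adjusted p = 0.0184). PSBQ1 (AT4G21280, chr4:11334352-11335815, plus strand), the second PsbQ gene, was at 1892, 1838, 1880 and 1827 CPM in Col-0 and at 1576, 1598, 1622 and 1753 in the prt6-labelled libraries. In prt6 erfVII it had 1513, 1630, 1665 and 1556 CPM. Its mutant libraries overlapped (log2 fold change 0.03, adjusted p = 0.741), and only Col-0 vs prt6 erfVII was called (0.22, adjusted p = 9.58e-04), while prt6 vs Col-0 gave an adjusted p of 0.0632. PSBO1 (AT5G66570, chr5:26568572-26570461, plus strand), the member with the most counts, had 4046, 4124, 4042 and 4168 CPM in Col-0 and 3629, 3646, 3548 and 3923 in the prt6-labelled libraries. Its prt6 erfVII libraries had 3476, 3729, 3894 and 3741 CPM. Its call in Col-0 vs prt6 erfVII was near the threshold (0.14, adjusted p = 0.0300) and was lost without Col-0 replicate 2 or 4 or prt6 erfVII replicate 1, 2 or 4, and with an offset for GC content and gene length. PSBO2 (AT3G50820, chr3:18890874-18892508, minus strand) was at 1269, 1254, 1277 and 1263 CPM in Col-0 and at 1101, 1107, 1101 and 1112 in the prt6-labelled libraries. Levels in prt6 erfVII were 1091, 1216, 1209 and 1144 CPM. It was lower in the prt6-labelled libraries than in Col-0 (-0.19, adjusted p = 0.0305) and, although its Col-0 libraries also lay above those of prt6 erfVII, missed the threshold there (adjusted p = 0.0654). PSBP1 (AT1G06680, chr1:2047634-2049439, plus strand) had 3516, 3550, 3639 and 3657 CPM in Col-0 and 3102, 3154, 3051 and 3063 in the prt6-labelled libraries. The prt6 erfVII values were 2701, 2948, 3068 and 2816 CPM. Col-0 was above both mutants (0.32 for Col-0 vs prt6 erfVII, adjusted p = 3.69e-05; -0.21 for prt6 vs Col-0, adjusted p = 0.0133), and the mutants overlapped. PSBP2 (AT2G30790, chr2:13118937-13120199, minus strand), annotated as the second PsbP gene, was at 3.62, 3.86, 3.19 and 4.82 CPM in Col-0, 3.81, 2.64, 3.04 and 2.26 in the prt6-labelled libraries and 1.41 to 2.75 in prt6 erfVII. It had the largest log2 fold change of the 34 genes in Col-0 vs prt6 erfVII (0.97) and also the largest standard error (0.21; adjusted p = 9.08e-04). PSBR (AT1G79040, chr1:29735952-29737009, plus strand) had 3361 to 3849 CPM in Col-0, 2912 to 3492 in the prt6-labelled libraries and 2674 to 3563 in prt6 erfVII. All 3 ranges overlapped, and Col-0 vs prt6 erfVII was called (0.23, adjusted p = 0.0193) but not without Col-0 replicate 3 or 4 or prt6 erfVII replicate 4.

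The next group holds small PSII proteins and PsbS, the sensor of lumen acidity in energy dissipation. All 5 genes were lower in prt6 erfVII than in Col-0, with log2 fold changes from 0.14 to 0.25, 3 were lower in the prt6-labelled libraries than in Col-0, and none was called between the mutants by edgeR's test (PSBY alone had an unadjusted p under 0.05). The shares of all genes tested were 18.7%, 1.09% and 31.3% in the same order. PSBW (AT2G30570, chr2:13019028-13020311, minus strand), needed for the larger PSII assemblies, was at 1859, 1932, 2002 and 1978 CPM in Col-0 and at 1621, 1608, 1535 and 1814 in the prt6-labelled libraries. In prt6 erfVII it had 1456, 1668, 1822 and 1573 CPM. Col-0 lay above both mutants (0.25 for Col-0 vs prt6 erfVII, adjusted p = 0.00188; -0.24 for prt6 vs Col-0, adjusted p = 0.0221). PSBY (AT1G67740, chr1:25394031-25395249, minus strand) had 1306, 1259, 1295 and 1296 CPM in Col-0 and 1097, 1054, 1081 and 1039 in the prt6-labelled libraries. Its prt6 erfVII libraries had 1061, 1222, 1220 and 1170 CPM. Unlike in 10 of the 12 PSI genes, its lowest mean was that of the prt6-labelled libraries, which were below Col-0 by a log2 fold change of -0.27 (± 0.05 SE, edgeR adjusted p = 0.00256). The call in Col-0 vs prt6 erfVII (edgeR adjusted p = 0.0385) was lost without Col-0 replicate 1, 3 or 4 or prt6 erfVII replicate 1 or 4. It was also lost with an offset for GC content and gene length. PSBTN (AT3G21055, chr3:7376432-7377226, minus strand) was at 1083, 1047, 1061 and 1060 CPM in Col-0, at 907, 950, 866 and 968 in the prt6-labelled libraries and at 849, 958, 1012 and 874 in prt6 erfVII, with adjusted p = 0.00599 for Col-0 vs prt6 erfVII and 0.0400 for prt6 vs Col-0. PSBS (AT1G44575, chr1:16870221-16873427, plus strand) had 1507 to 1620 CPM in Col-0, 1354 to 1546 in the prt6-labelled libraries and 1285 to 1432 in prt6 erfVII, and PSBX (AT2G06520, chr2:2587729-2588448, minus strand) 1473 to 1589, 1254 to 1502 and 1207 to 1516. PSBS was called in Col-0 vs prt6 erfVII (adjusted p = 0.00236), and PSBX only at the threshold (adjusted p = 0.0496), a call that was lost without any 1 of 7 libraries and under 5 of the other settings.

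Between the photosystems, plastocyanin and the Rieske protein did not follow one pattern. PETE1 (AT1G76100, chr1:28553883-28554930, minus strand), the less abundant plastocyanin gene, was at 211, 212, 209 and 218 CPM in Col-0 and at 166, 177, 158 and 189 in the prt6-labelled libraries. Levels in prt6 erfVII were 147, 163, 166 and 153 CPM. Every Col-0 library was above every mutant library (0.44 ± 0.05 SE for Col-0 vs prt6 erfVII, adjusted p = 4.84e-07; -0.30 ± 0.06 SE for prt6 vs Col-0, adjusted p = 0.00722). PETE2 (AT1G20340, chr1:7042046-7043392, minus strand), the main plastocyanin gene, had 2906, 2961, 3022 and 2938 CPM in Col-0 and 2424, 2450, 2507 and 2848 in the prt6-labelled libraries. The prt6 erfVII values were 2487, 2762, 2957 and 2704 CPM. It overlapped between Col-0 and prt6 erfVII (log2 fold change 0.12, adjusted p = 0.0992) and was lower in the prt6-labelled libraries than in Col-0 (-0.21, adjusted p = 0.0496). PETC (AT4G03280, chr4:1440146-1441863, plus strand), the single Rieske gene, reached 1235, 1270, 1308 and 1270 CPM in Col-0 and 1096, 1047, 1102 and 1379 in the prt6-labelled libraries. In prt6 erfVII it had 1234, 1323, 1446 and 1309 CPM. It was called lower in the prt6-labelled libraries than in prt6 erfVII (-0.21 ± 0.08 SE, edgeR adjusted p = 0.0470), with replicate 4 of prt6 inside the range of prt6 erfVII. The call was lost with RLE size factors and with replicate number as a block. It was also lost without prt6 replicate 1, 2 or 3 or prt6 erfVII replicate 2, 3 or 4. Neither comparison with Col-0 was called (adjusted p = 0.383 for Col-0 vs prt6 erfVII and 0.447 for prt6 vs Col-0).

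Ferredoxin is the soluble acceptor of PSI electrons, and neither of its genes was lower in prt6 erfVII than in Col-0. FD1 (AT1G10960, chr1:3664187-3665040, plus strand) had 360, 372, 372 and 377 CPM in Col-0 and 334, 332, 331 and 384 in the prt6-labelled libraries. Its prt6 erfVII libraries had 412, 456, 470 and 415 CPM. All prt6 erfVII libraries were above all others, and FD1 was the only member called higher in prt6 erfVII than in Col-0 (Col-0 vs prt6 erfVII -0.24 ± 0.05 SE, adjusted p = 9.33e-04). It was also higher there than in the prt6-labelled libraries (prt6 vs prt6 erfVII -0.36 ± 0.07 SE, adjusted p = 3.95e-04). FD2 (AT1G60950, chr1:22444307-22445291, plus strand), the main leaf ferredoxin gene, was at 1575, 1578, 1425 and 1459 CPM in Col-0 and at 1089, 1100, 1109 and 1435 in the prt6-labelled libraries. Levels in prt6 erfVII were 1382, 1553, 1709 and 1469 CPM. Replicates 1 to 3 of prt6 lay below every other library and replicate 4 among the rest. FD2 was lower in the prt6-labelled libraries than in prt6 erfVII (-0.38 ± 0.09 SE, adjusted p = 0.00361) and than in Col-0 (-0.35 ± 0.08 SE, adjusted p = 0.0272), and without prt6 replicate 4 the first became -0.48 and the second -0.45. Between Col-0 and prt6 erfVII it was not called (-0.02, adjusted p = 0.850, 95% confidence interval -0.15 to 0.11). The leaf ferredoxin-NADP reductases, which pass the electrons to NADP, showed small differences. FNR1 (AT5G66190, chr5:26450964-26453199, minus strand) was at 911, 936, 968 and 962 CPM in Col-0, at 856, 847, 861 and 928 in the prt6-labelled libraries and at 841, 888, 924 and 867 in prt6 erfVII, and no comparison was called. FNR2 (AT1G20020, chr1:6942625-6945091, plus strand) had 831, 842, 850 and 811 CPM in Col-0, 716, 774, 805 and 827 in the prt6-labelled libraries and 797, 741, 772 and 721 in prt6 erfVII. Its difference between Col-0 and prt6 erfVII was called (0.14, edgeR adjusted p = 0.0308), but not without Col-0 replicate 1, 2 or 3 or prt6 erfVII replicate 2 or 4. That call was also lost with an offset for GC content and gene length, and with 1 fit over all 12 libraries.

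Of the 3 plastid ATP synthase genes among the members, 1 differed from Col-0. ATPD (AT4G09650, chr4:6100714-6101864, plus strand), which encodes the delta subunit, was at 949, 957, 947 and 954 CPM in Col-0 and at 817, 836, 820 and 819 in the prt6-labelled libraries. The prt6 erfVII values were 763, 822, 853 and 785 CPM. Col-0 lay above both mutants (0.24 for Col-0 vs prt6 erfVII, adjusted p = 5.46e-04; -0.21 for prt6 vs Col-0, adjusted p = 0.0213). ATPC1 (AT4G04640, chr4:2350498-2352025, minus strand), the gamma subunit gene, had 1205 to 1283 CPM in Col-0, 1080 to 1166 in the prt6-labelled libraries and 1166 to 1243 in prt6 erfVII. ATPG (AT4G32260, chr4:15573553-15574737, minus strand), a gene of the membrane stalk, had 954 to 1021, 889 to 1068 and 918 to 1071 CPM. Neither was called in any comparison, and for Col-0 vs prt6 erfVII the 95% confidence intervals of the log2 fold change were -0.06 to 0.15 for ATPC1 and -0.11 to 0.11 for ATPG. Of the members described, PSAE1, PSAE2, PSAG, PSAH1, PSAH2, PSAN, PSBP1, PSBP2, PSBR and FNR1 overlap a gene on the opposite strand, and whether strand was used in counting is not stated, so their counts may include reads of that neighbour. PSAD2, PSBP1 and FD1 overlap a neighbour on the same strand.

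The summed levels of PSI and PSII genes were set side by side within each library. The 12 PSI genes had a summed level in Col-0 of 21165 ± 509 CPM (SD, n = 4), with 17777 ± 769 in the prt6-labelled libraries and 15917 ± 1178 in prt6 erfVII. The 12 PSII genes summed to 23395 ± 450, 20433 ± 849 and 19861 ± 1338 CPM. The ratio of the 2 sums was 0.894 to 0.917 in Col-0, 0.858 to 0.881 in the prt6-labelled libraries and 0.795 to 0.808 in prt6 erfVII. The 3 ranges of this ratio did not overlap, although the sums themselves varied by more within prt6 erfVII; no test was run on it, since it is a score over the chosen genes. The 21 antenna genes, which encode the chlorophyll-binding proteins around both photosystems, took 7.47% ± 0.237, 6.14% ± 0.236 and 5.59% ± 0.381 of the counts on genes in the same order. The sum of the root markers, in which root hair genes such as PRP3 (21.9 CPM in Col-0 and 7.01 in prt6 erfVII) made the difference, was lowest in prt6 erfVII as well, at 67.7 ± 7.25 CPM against 95.8 ± 12.2 in Col-0 and 104 ± 10.8 in the prt6-labelled libraries, and the part of tissue proportions in the levels of the members was not tested.

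**Figure D4:**
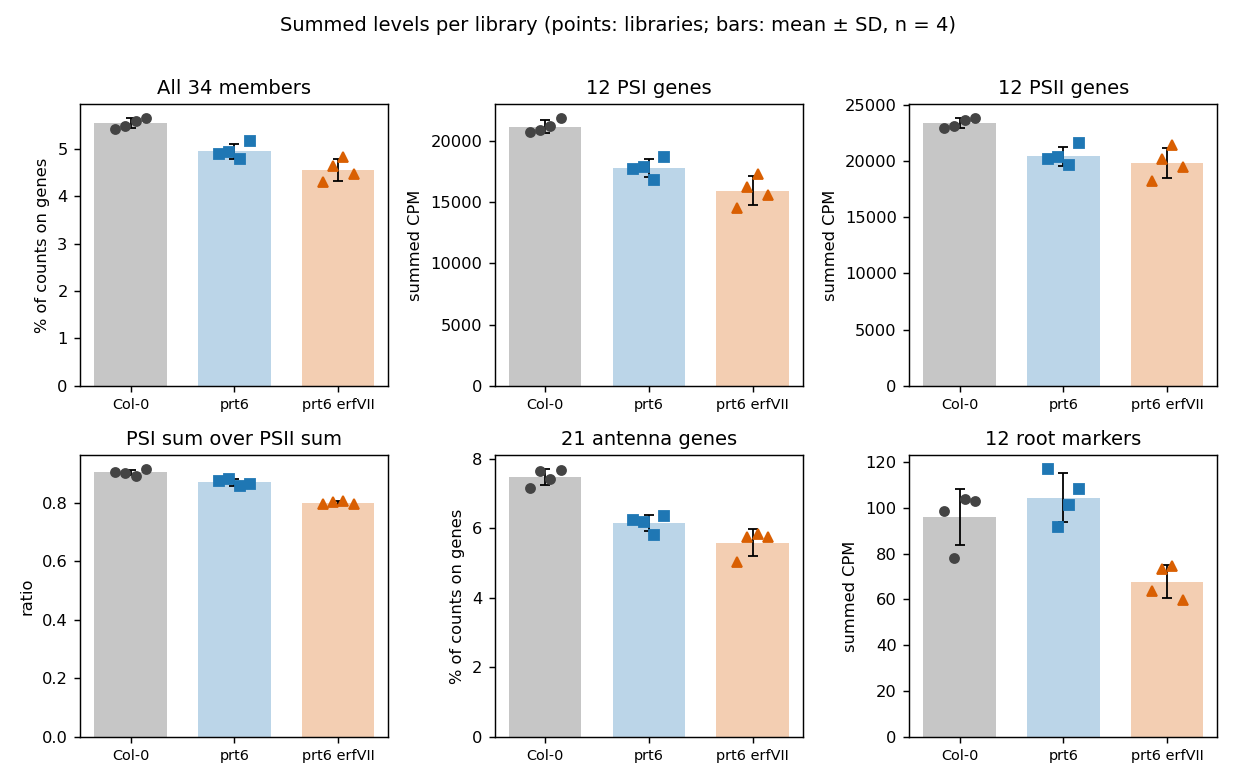
Summed levels in each library (points) with mean ± SD (bars, n = 4): share of counts of the 34 genes and of the 21 antenna genes, summed CPM of PSI genes, PSII genes and root markers, and the ratio of the PSI sum to the PSII sum. The ratio is 0.795 to 0.808 in prt6 erfVII and at least 0.858 in every other library.

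Within a library, the ratio of the 2 copies of a gene pair does not depend on library size or on the amount of green tissue as long as both copies are expressed in the same cells. For each of the 9 pairs the mean log2 ratio was compared between genotypes with an exact two-sided permutation test over libraries, for which 4 libraries against 4 allow no p below 0.0286. In 10 of the 27 tests the libraries did not overlap and p reached 0.0286. After Benjamini-Hochberg adjustment over the 27 tests none passed the threshold (smallest adjusted p = 0.0771). With 10 tests at the smallest possible p, no adjusted p could have passed, so the adjusted result cannot decide whether the ratios differ. The ratio of PSAH1 to PSAH2 was 0.636, 0.639, 0.643 and 0.655 in the Col-0 libraries, 0.659, 0.662, 0.672 and 0.677 in those labelled prt6 and 0.808, 0.806, 0.819 and 0.824 in prt6 erfVII. The share of PSAH1 was thus higher in every prt6 erfVII library than in any other, with a difference in log2 ratio of -0.34 for Col-0 vs prt6 erfVII and -0.29 for prt6 vs prt6 erfVII (exact p = 0.0286 each). The prt6-labelled and Col-0 libraries did not overlap either, with a smaller difference of 0.05 (exact p = 0.0286). For PSBQ1 to PSBQ2 the ratio was 1.19, 1.19, 1.17 and 1.13 in Col-0, 1.16, 1.14, 1.28 and 1.24 in the prt6-labelled libraries and 1.58 to 1.66 in prt6 erfVII. Again prt6 erfVII stood apart, by a log2 ratio of -0.46 against Col-0 and -0.42 against the prt6-labelled libraries (exact p = 0.0286 each), while prt6 and Col-0 overlapped (exact p = 0.371). PETE1 was a small part of the plastocyanin transcripts, at 0.0719 of the PETE2 count in Col-0 and 0.0674 in the prt6-labelled libraries (geometric means), and a smaller one in prt6 erfVII at 0.0577, with no overlap between prt6 erfVII and either of the others. The ratio of FD1 to FD2 separated Col-0 (0.229 to 0.261) from both mutants (0.267 to 0.307 in the prt6-labelled libraries and 0.275 to 0.298 in prt6 erfVII). PSAD1 to PSAD2 was at most 2.28 in Col-0 and 2.53 to 2.75 in prt6 erfVII, with the prt6-labelled libraries between them at 2.27 to 2.54. The ratios of PSAE1 to PSAE2, PSBO1 to PSBO2, PSBP1 to PSBP2 and FNR1 to FNR2 overlapped between all genotypes, at means of 3.87, 3.24, 933 and 1.13 in Col-0.

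**Figure D5:**
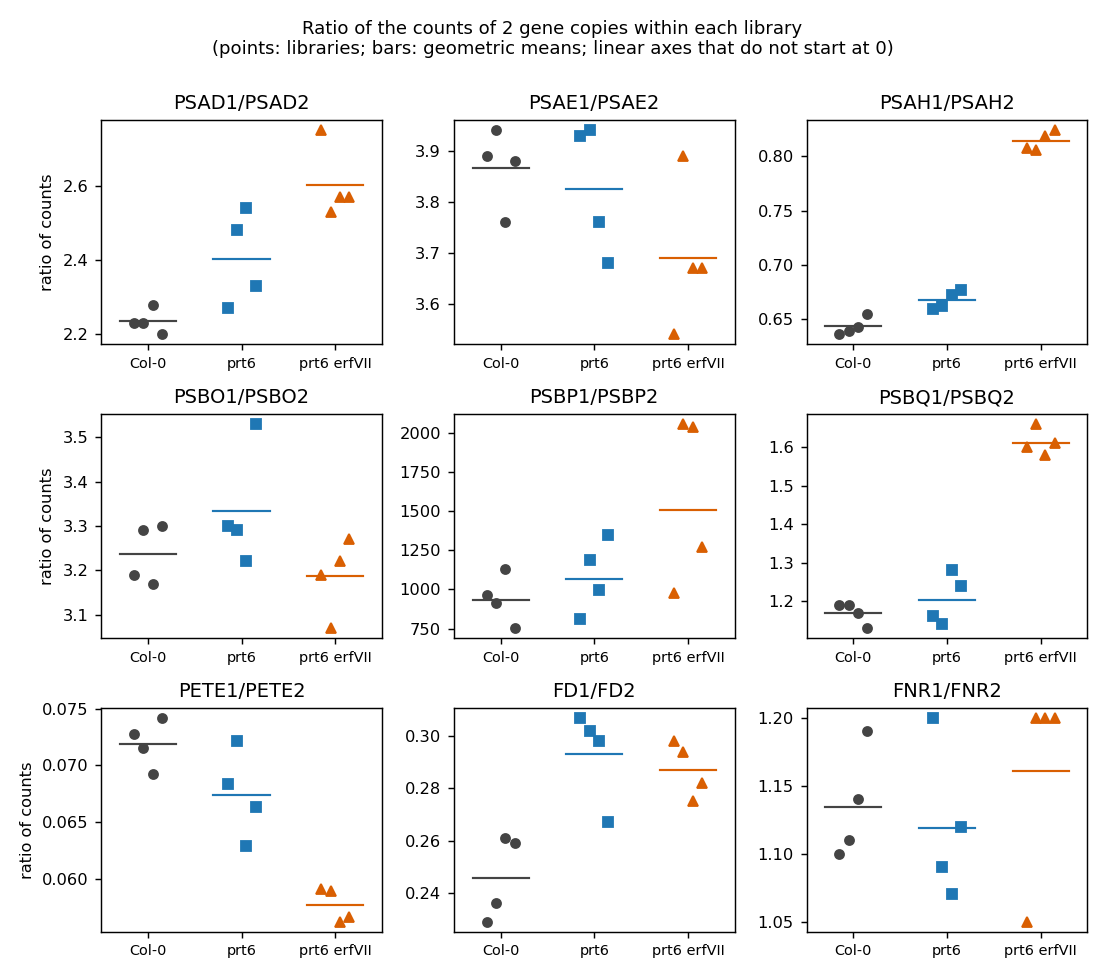
Ratio of the counts of the 2 gene copies of each of 9 pairs in each library (points; bars are geometric means; linear axes that do not start at 0). In prt6 erfVII the ratio of PSAH1 to PSAH2 is 0.806 to 0.824 and that of PSBQ1 to PSBQ2 is 1.58 to 1.66, each above every other library.

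Other nuclear genes of electron transport, which make lower amounts of transcript, were called in both directions against prt6 erfVII. Of 46 such genes 45 were tested: against prt6 erfVII, Col-0 had 16 higher and 10 lower (median log2 fold change 0.05), the prt6-labelled libraries had 8 higher and 11 lower (median -0.07), and 0 were called in prt6 vs Col-0 with edgeR (median -0.11). In that last comparison 17 were lower and 0 higher at an unadjusted p under 0.05, and DESeq2 called 2 lower. For these and the counts below, the background is the share of all genes called. Against prt6 erfVII, 18.7% of all genes were higher and 18.5% lower in Col-0. In the prt6-labelled libraries the shares were 14.7% and 16.6%, and in prt6 vs Col-0 they were 1.09% each way. Accessory proteins that help to assemble or repair PSII were lower in Col-0 than in prt6 erfVII for 4 of 5 genes (median -0.21) and lower in the prt6-labelled libraries for all 5 (median -0.38), among them PSB27 (-0.26 and -0.42). HCF136, a PSII assembly factor, was likewise lower in Col-0 (-0.36 ± 0.05 SE, adjusted p = 5.00e-06) and in the prt6-labelled libraries (-0.51 ± 0.06 SE, adjusted p = 3.83e-06) than in prt6 erfVII. PETM, a small nuclear subunit of the cytochrome b6f complex, was also lower in Col-0 (-0.30) and in the prt6-labelled libraries (-0.50). Of the 17 genes of the chloroplast NDH complex, 8 were higher in Col-0 than in prt6 erfVII and none lower, with the largest change in NDHS (0.39). The largest differences were in the root-type redox partners: RFNR2, a ferredoxin-NADP reductase of roots, was at 167 ± 11.4 CPM (SD, n = 4) in Col-0 and 160 ± 27.8 in the prt6-labelled libraries, against 63.3 ± 4.65 in prt6 erfVII (called in both comparisons). FD3, the root ferredoxin, had log2 fold changes of 0.60 and 0.57 against prt6 erfVII. The root hair markers given above were lower in prt6 erfVII too, none of the endodermis markers was called lower there, and their part in these differences was not tested. Among the 21 antenna genes, 18 were higher and 1 lower in Col-0 than in prt6 erfVII (median 0.46), 16 were lower in the prt6-labelled libraries than in Col-0 (median -0.35), and LHCB2.3 had the largest change in both (1.19 and -0.58).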

How the data were processed

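RNAseq was carried out on poly(A) RNA of 12 seedling samples, 4 per genotype, grouped by their labels. The authors aligned reads to the TAIR10 genome with HISAT2 2.1.0 and deposited whole-number counts per gene from featureCounts 1.6.0; multi-mapped reads were left out, and the strand setting is not given in the sources used here. From these counts, a model was fitted to the 8 libraries of each comparison with the robust quasi-likelihood test of edgeR 4.0.16 (R 4.3.3, limma 3.58.1), after filterByExpr and TMM scaling, over all genes, with Benjamini-Hochberg adjustment and a threshold of 0.05. Positive values are higher in the genotype named first. DESeq2 1.42.0, other scalings, filters and designs, and leaving out each library were tried as alternatives. Copy ratios used counts plus 0.5 and an exact permutation test (scipy 1.17.1). RPKM used exon lengths of the RefSeq annotation of TAIR10.1, which also gave coordinates and sequences. Values in every library are given for members of gene pairs, for the 5 largest called changes per direction and for genes called in prt6 vs Col-0. Gene members and lists were chosen with earlier results of these data known. The test was tested on simulated data: all 200 genes changed 2-fold in each comparison were recovered, with 18 false calls for prt6 vs prt6 erfVII (20710 genes), 14 for Col-0 vs prt6 erfVII (20625) and 19 for prt6 vs Col-0 (20749). Smaller changes, as all 34 members had, were not simulated. Depth sets the precision of PSBP2 only, since the other members had at least 3792 counts per library. An edgeR p-value sets the difference between genotype means against a spread between replicates that is moderated with information from all genes.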

Additional observations from a re-analysis of the deposited data

Results flagged for a closer look

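In 8 of the 102 groups of 4 libraries (34 genes in 3 genotypes), 1 library lay far from the other 3 by Dixon's criterion, which chance alone meets in about 1 in 20 groups. Replicate 4 of the prt6-labelled libraries was the high one for 5 genes: PETC at 1379 CPM (1047 to 1102 in the others), FD2 at 1435 (1089 to 1109), FD1 at 384 (331 to 334), FNR1 at 928 (847 to 861) and ATPG at 1068 (889 to 914). These are genes of electron carriers and the ATP synthase, and the same library had the 3 largest replicate deviations in counts over all genes. Replicate 2 of the prt6-labelled libraries was high for PSAG, at 1833 CPM (1758 to 1769), and for ATPD, at 836 (817 to 820). Col-0 replicate 4 was high for PSBX, at 1589 CPM (1473 to 1489).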

How the results depend on the processing

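No called result changed direction under the alternatives run; the uncalled difference in the log2 ratio of FNR1 to FNR2 in prt6 vs Col-0 went from -0.02 to 0.01 without Col-0 replicate 4. Of the called genes taken through every alternative, those with the largest changes (in prt6 vs Col-0 all 20), 18 of 144 values of 8 genes in prt6 vs prt6 erfVII, 0 of 108 values of 6 genes in Col-0 vs prt6 erfVII and 71 of 360 values of 20 genes in prt6 vs Col-0 no longer passed the threshold. Of all 27 calls in Col-0 vs prt6 erfVII, 5 (FNR2, PSBO1, PSBR, PSBX and PSBY) were lost when some library was left out. A share of counts that includes organelle genes could not be computed, as the table has no such genes. In prt6 vs prt6 erfVII, 4 to 10 of the 34 genes were called higher when 1 library was left out, and 3 at an adjusted p under 0.01. In prt6 vs Col-0, 9 to 29 were called lower when 1 library was left out, and 9 at an adjusted p under 0.01. In Col-0 vs prt6 erfVII, 2 were called lower with the replicate block and an offset for GC content and length. Without the 3 members with most counts, the share of counts was 4.42% in Col-0, 3.93% in the prt6-labelled libraries and 3.62% in prt6 erfVII. Deviations of libraries with the same replicate number had correlations of -0.08 to 0.16, against -0.16 to 0.12 for unequal numbers. The labels do not say whether equal numbers mark samples grown together, and these correlations cannot exclude it. With a replicate block, the calls were 5 higher and 2 lower in prt6 vs prt6 erfVII. They were 28 higher and 1 lower in Col-0 vs prt6 erfVII, and 19 lower in prt6 vs Col-0. Over all genes, 455 were called in prt6 vs Col-0, 679 with DESeq2, 773 with the GC and length offset, and 1231 without prt6 replicate 4. The cause was not tested. The few counts of PSBP2 limit what can be said of it.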

Other observations

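Enzymes of the Calvin cycle, which use the ATP and NADPH of electron transport, took 5.05% ± 0.0714 of the counts on genes in Col-0, 4.88% ± 0.207 in the prt6-labelled libraries and 4.95% ± 0.124 in prt6 erfVII (SD, n = 4). Of the 18 genes, 6 (RBCS1B, RBCS3B, GAPA1, GAPA2, FBA2 and RPE) were lower and none higher in the prt6-labelled samples than in prt6 erfVII. Of all genes tested there, 31.3% were called (14.7% higher and 16.6% lower), and 47.4% of those with at least 100 CPM on average. The 6 calls were thus no more than among genes at that level. Of the same 18, 3 were higher and 1 lower in Col-0 than in prt6 erfVII, where 37.2% of all genes were called. By the same edgeR test, 2 were lower in the prt6-labelled libraries than in Col-0. In that comparison 2.18% of all genes and 5.96% of those with at least 100 CPM were called.

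Among 12 regulators of photosynthesis genes, 8 were lower and 1 higher in Col-0 than in prt6 erfVII, against 18.5% and 18.7% of all genes tested. In the prt6-labelled libraries 9 were lower and 1 higher than in prt6 erfVII, against 16.6% and 14.7%. The higher one was GLK1, a transcription factor of chloroplast development, at 137 ± 5.03 CPM in Col-0, 120 ± 5.86 in the prt6-labelled libraries and 77.9 ± 3.91 in prt6 erfVII (log2 fold changes 0.81 and 0.61 against prt6 erfVII). GLK2, the second GLK gene, was at 146 ± 9.96, 120 ± 5.38 and 152 ± 9.08 CPM in the same order. Against prt6 erfVII it was lower in the prt6-labelled libraries (-0.35, edgeR adjusted p = 2.82e-04) and not called in Col-0 (-0.06). It was the only regulator called in prt6 vs Col-0 (-0.28, edgeR adjusted p = 0.0181). CGA1, a GATA factor of greening, went the other way from GLK1. Its log2 fold changes against prt6 erfVII were -1.12 for Col-0 and -1.25 for the prt6-labelled libraries.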
